A study of Mus musculus with 26 samples.

Results

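The genes described here are 10 neuronal genes of the kind that neurotrophins induce: Npy, Sst, Cort, Tac1, Crh, Penk and Cck, which encode neuropeptide precursors, Vgf and Scg2, which encode granin-type precursors of dense-core vesicles, and Nptx2, which encodes the secreted synaptic protein neuronal pentraxin 2. They were chosen by name, with all 12 of their probe sets, and are 10 of the 14941 genes tested. All 10 genes passed the filter on dim genes, and 11 of the 12 probe sets passed it on their own. The second Tac1 probe set had a mean log2 value of 3.51 over all arrays, below the limit of 4.33, and was not tested. The second Nptx2 probe set was dim, with a mean of 4.68 near that limit, against 8.45 for the brighter one. Counts of members rest on the brightest probe set of each gene and leave the second Nptx2 probe set out.

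RNA from entorhinal cortex and hippocampus of aged mice was hybridized to 26 Affymetrix arrays, 13 per region. The study asked what brain-derived neurotrophic factor (BDNF), carried by a lentivirus into the entorhinal cortex, does in mice with an amyloid precursor protein (APP) transgene, a model of Alzheimer's disease. Each region had 4 arrays of APP transgenic BDNF animals, 4 of APP transgenic animals given green fluorescent protein (GFP), 2 of non-transgenic (WT) GFP animals and 3 of non-transgenic sham lesion animals, with tissue taken 4 weeks after infection. The labels place the injection in the entorhinal cortex and do not tie the arrays of the regions to single animals. The labels name neither the transgenic line and the promoter of its transgene nor the cell types that the virus infects, and they give no ages in numbers. No group of non-transgenic animals received BDNF. Tissue was measured in bulk, so fewer cells of a type and less RNA per cell cannot be told apart in any value below. Arrays are named by group and replicate number.

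BDNF is released by neurons, binds the receptor TrkB (encoded by Ntrk2) and switches on kinase cascades that end at transcription factors such as CREB, which binds the cAMP response element (CRE) of target promoters. Neuropeptide genes are classical CREB targets. In cortex and hippocampus, Sst, Npy, Cort, Vip and Crh are made mainly by inhibitory interneurons, whereas Cck, Scg2, Vgf, Penk, Tac1 and Nptx2 are also made by excitatory cells. Peptides are cut out of their precursors in dense-core vesicles and act slowly, over longer distances than the classical transmitters that the same cells release. Loss of somatostatin and neuropeptide Y is a known feature of Alzheimer's disease, and Vgf, Nptx2 and Scg2 products have been studied as its markers in cerebrospinal fluid.

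Promoter sequences were matched for 6 of the 10 genes in a RefSeq-based table (build GRCm38.p6), and the 120 bases before the start are shown because the sites through which CREB acts usually lie close to the start. Windows for Vgf, Nptx2, Crh and Penk were not matched. Capitals mark the longest CRE-type match inside the stretch, on either strand: the full palindrome TGACGTCA, the variant TGCGTCA, or the core CGTCA alone, which also lies within both longer forms. Sst (chr16:23890845-23890964, minus strand) and Scg2 (chr1:79440027-79440146, minus strand) hold the full palindrome. Cck (chr9:121495695-121495814, minus strand) and Cort (chr4:149126764-149126883, minus strand) hold the variant, and Tac1 (chr6:7554941-7555060, plus strand) holds the core. In Npy (chr6:49822590-49822709, plus strand) none of these letters, nor the AP-1 motif TGANTCA, was found.
Sst: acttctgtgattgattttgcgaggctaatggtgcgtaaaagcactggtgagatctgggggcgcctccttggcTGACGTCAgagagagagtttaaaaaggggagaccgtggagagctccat
Scg2: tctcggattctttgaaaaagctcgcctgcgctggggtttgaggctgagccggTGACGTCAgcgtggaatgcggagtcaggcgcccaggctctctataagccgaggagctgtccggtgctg
Cck: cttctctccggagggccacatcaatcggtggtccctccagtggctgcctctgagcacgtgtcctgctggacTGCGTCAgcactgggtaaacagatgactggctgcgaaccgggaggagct
Cort: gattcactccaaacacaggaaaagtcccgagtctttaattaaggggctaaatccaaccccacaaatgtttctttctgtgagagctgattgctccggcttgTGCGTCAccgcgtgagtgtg
Tac1: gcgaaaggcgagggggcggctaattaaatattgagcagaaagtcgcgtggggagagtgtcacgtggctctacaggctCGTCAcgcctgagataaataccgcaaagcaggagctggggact
Npy: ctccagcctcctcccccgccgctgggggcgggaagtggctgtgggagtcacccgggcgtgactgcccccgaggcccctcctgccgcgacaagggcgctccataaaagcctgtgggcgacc
The palindrome begins 48 bases before the start in Sst and 68 bases before it in Scg2, and the variant begins at 49 in Cck and 20 in Cort. In the same 120 bases of 32851 windows the palindrome was present in 1.24%, the variant in 1.18% and the core in 11.7%. Over the full windows of 300 bases, from 250 before to 50 after the start, these shares were 1.79%, 2.12% and 20.8%. In Tac1 a further variant match lies 199 bases before the start, outside the stretch printed. A match is a description of the letters and not evidence of a bound site.

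The dissections carried the markers of their labels for the most part. Dsp, C1ql2, Prox1 and Lct, genes of the dentate gyrus, read higher in the hippocampus, Dsp with a mean of 9.15 there against 4.38 in the entorhinal cortex. Tbr1, Lamp5 and Reln read higher in the entorhinal cortex, while Fezf2 and Lmo3 (listed for cortex) and Wfs1 (listed for hippocampus) went the other way. Entorhinal BDNF array 3 and entorhinal non-transgenic GFP array 2 had low means over 6 oligodendrocyte genes, 7.74 and 7.95 against 8.65 to 9.49 elsewhere in the region, and on hippocampal sham array 1 the mean over 5 genes of the choroid plexus was 8.81, where no other array passed 6.18. All 10 non-transgenic arrays were high in Xist, the RNA of the inactive X chromosome of females, against 2 of 4 arrays in each transgenic group, so the mix of sexes read from Xist differed between genotypes. Some results that rest on these arrays are given with and without them, and for others the values of the arrays are given.

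**Figure D1:**
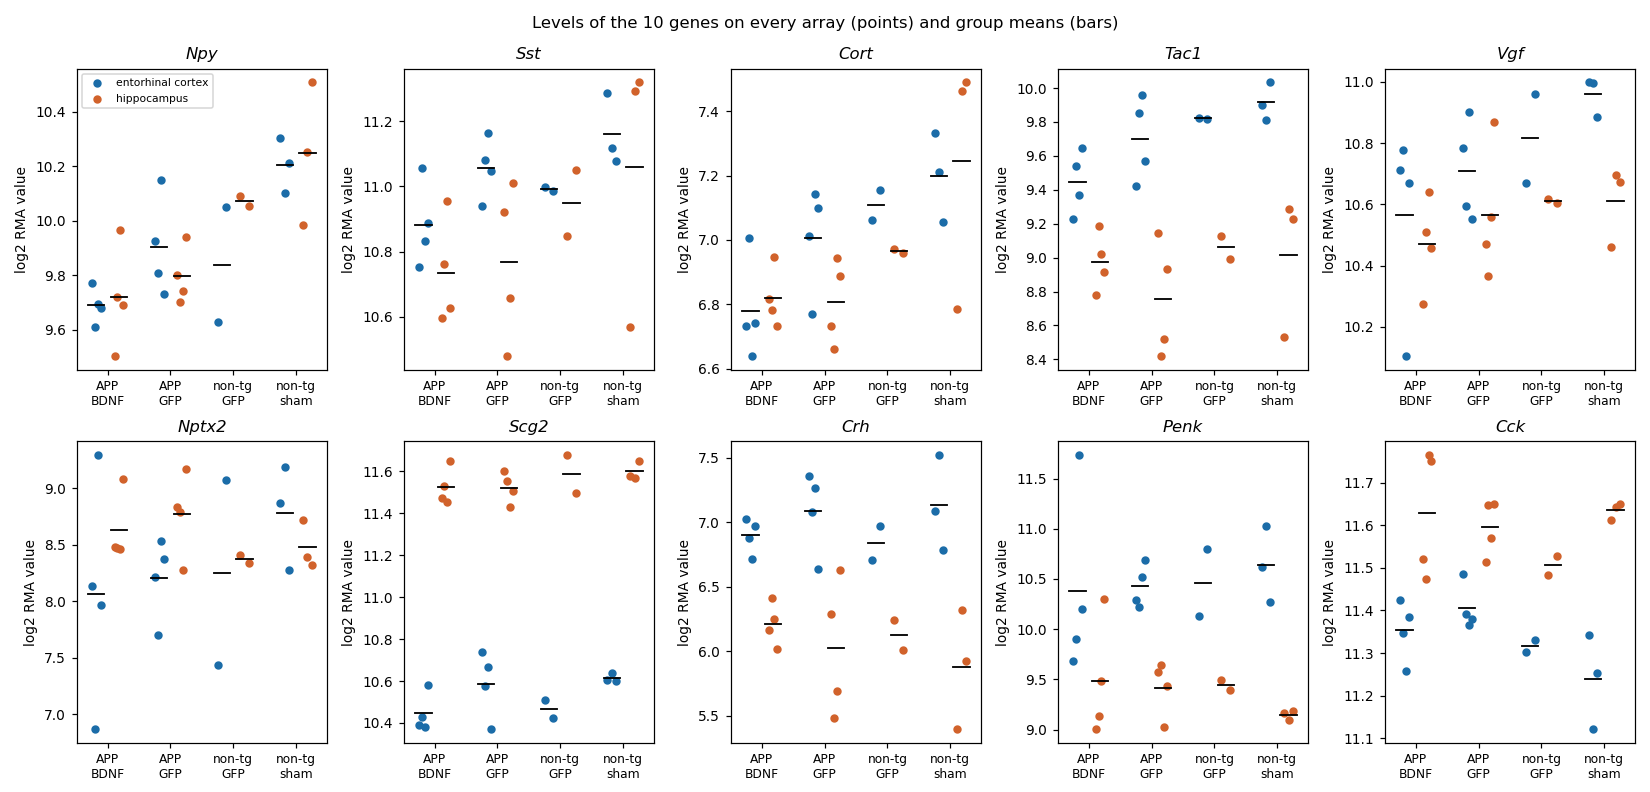
Each panel shows 1 gene on all 26 arrays as log2 RMA values, with entorhinal arrays in blue, hippocampal arrays in orange, and black bars at group means (4, 4, 2 and 3 arrays). Scg2 separates the regions completely, Nptx2 and Penk scatter most within entorhinal groups, and Npy on hippocampal arrays is lower in both transgenic groups than in the non-transgenic ones.

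The genes were first compared between the regions, as the mean over the 4 groups on all 26 arrays. Limma called 6 of the 10 at an adjusted p under 0.05, against 51.8% of all genes, so the share was near the background. Tac1, the precursor of substance P and neurokinin A, Crh, the stress peptide corticotropin-releasing hormone, Penk, the enkephalin precursor, and Vgf were higher in the entorhinal cortex. Scg2, or secretogranin II, and Cck, the cholecystokinin precursor, were higher in the hippocampus.

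Scg2 read 10.37 to 10.74 (median 10.58) on entorhinal arrays and 11.43 to 11.68 (median 11.55) on hippocampal arrays. The regions did not overlap, and Scg2 was lower in the entorhinal cortex by 1.03 ± 0.04 on the log2 scale (SE, limma adjusted p = 9.68e-15), which is 0.489-fold. It ranked 39th of all genes by p. Crh read 6.64 to 7.52 in the entorhinal cortex and 5.40 to 6.63 in the hippocampus, also without overlap. It was 0.93 ± 0.13 higher in the entorhinal cortex (limma adjusted p = 2.44e-06). Scg2 and Crh were the 2 members whose arrays did not overlap between regions, against 10.6% of all genes. Penk was 1.11 ± 0.19 higher in the entorhinal cortex (2.15-fold, limma adjusted p = 3.47e-05). Its ranges, 9.69 to 11.73 and 9.01 to 10.30, overlapped through hippocampal BDNF array 4. Tac1 was 0.77 ± 0.10 higher (limma adjusted p = 5.64e-07) and Cck lower by 0.26 ± 0.04 (limma adjusted p = 5.27e-06).

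Vgf, a precursor that BDNF induces in cultured neurons, was 0.20 ± 0.07 higher in the entorhinal cortex (limma adjusted p = 0.0303). That call ended without any of 4 arrays: entorhinal non-transgenic GFP array 2 (0.16, adjusted p = 0.104), hippocampal non-transgenic GFP array 1 (0.20, adjusted p = 0.0543) or array 2 (0.20, adjusted p = 0.0564), or hippocampal sham array 1 (0.18, adjusted p = 0.0580). Npy, Sst and Cort, or cortistatin, were not called: Npy read −0.05 ± 0.07, Sst 0.15 ± 0.08 and Cort 0.06 ± 0.07 (entorhinal minus hippocampal). Nptx2 read −0.24 ± 0.21 on all arrays, and 0.02 ± 0.10 on its second probe set. Without the 3 arrays that stand apart it was called, at −0.51 ± 0.17 (limma adjusted p = 0.0170), which makes 7 of 10. Bdnf itself was lower in the entorhinal cortex by 0.87 ± 0.11, and Ntrk2 was 0.33 ± 0.06 higher.

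**Figure D2:**
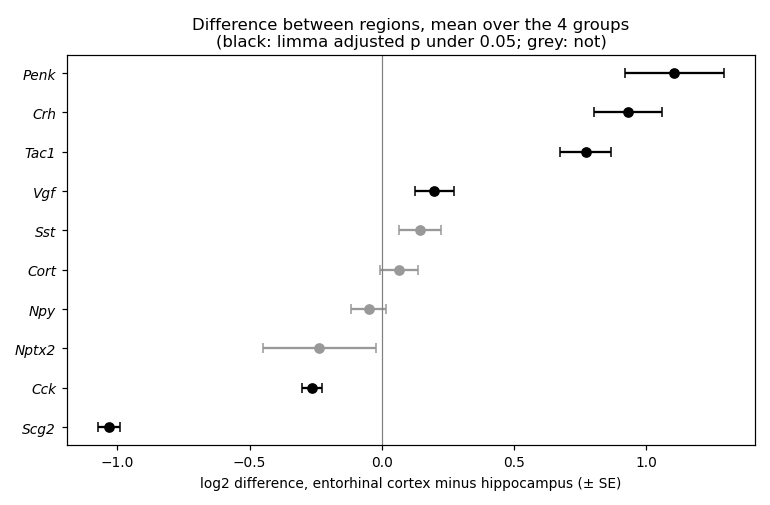
Points show the log2 difference of each gene, entorhinal cortex minus hippocampus, as the mean over the 4 groups, with bars of 1 SE. Called genes are black and the others grey, with Scg2 at −1.03 and Penk at 1.11 at the ends.

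The central question was whether BDNF delivery changed these genes in transgenic mice, first at the injected site. No gene passed the test there. All 10 read below 0 against GFP, with a median of −0.16, where 44.9% of all genes read below 0 and the median of all genes was 0.01. Limma called 0 of the 10 and 0% of all genes. At an unadjusted p under 0.05 there were 2, Cort and Sst, against 3.88% of all genes, and every adjusted p was at least 0.998. Markers of some other cells read below 0 too: the median difference was −0.83 over class II genes of the major histocompatibility complex (MHC), carried by antigen-presenting cells (0 of 5 above 0), −0.13 over oligodendrocyte genes (0 of 6) and −0.10 over microglial genes (1 of 7), with 0 called, and −0.01 over GABAergic interneuron genes (4 of 9). The oligodendrocyte mean was 9.49, 9.20, 7.74 and 8.99 on BDNF arrays 1 to 4 and 8.65 to 9.48 with GFP, so only BDNF array 3 lay below the GFP range. Astrocyte genes went the other way, with a mean of 10.86 with BDNF and 10.79 with GFP. The part of these cells in the shift of the members was not tested. Bdnf read 0.11 ± 0.21 and Ntrk2 −0.09 ± 0.10 in the same comparison, and whether the Bdnf probe sets read the vector's transcript was not tested.

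Npy, the most widespread interneuron peptide of the cortex, read 9.77, 9.61, 9.70 and 9.68 on BDNF arrays 1 to 4 and 9.93, 9.81, 10.15 and 9.73 on GFP arrays 1 to 4. Only GFP array 4 fell within the BDNF range, and the difference was −0.21 ± 0.11 (SE, n = 4 and 4). Sst, somatostatin, read 10.75, 11.06, 10.83 and 10.89 with BDNF and 10.94, 11.08, 11.16 and 11.05 with GFP. The groups overlapped through BDNF array 2, with a difference of −0.18 ± 0.08 (limma adjusted p = 0.998). Cort, whose product binds somatostatin receptors, read 6.73, 7.0, 6.64 and 6.74 with BDNF and 7.01, 6.77, 7.14 and 7.10 with GFP. BDNF array 2 and GFP array 2 crossed, and the difference was −0.23 ± 0.10 (limma adjusted p = 0.998). Tac1 read 9.23, 9.54, 9.37 and 9.65 with BDNF and 9.42, 9.85, 9.96 and 9.57 with GFP, a difference of −0.26 ± 0.12. None of the 10 genes had groups without overlap in this comparison, where 2.32% of all genes did.

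Scg2 read −0.14 ± 0.08, Crh −0.19 ± 0.17, Cck −0.05 ± 0.06 and Penk −0.05 ± 0.37. The Penk value near 0 rested on BDNF array 3, at 11.73, above every GFP array (10.22 to 10.69). On the other BDNF arrays Penk read 9.69, 9.90 and 10.20, below every GFP array. Vgf read −0.14 ± 0.14, and this rested on BDNF array 3, at 10.10 against 10.67 to 10.78 on the other BDNF arrays. Without that array Vgf read 0.011. Nptx2 read −0.14 ± 0.46 on its brighter probe set and 0.28 ± 0.22 on the other, so its sign differed between probe sets. On BDNF array 3 the brighter probe set read 9.29, against 6.87 to 8.13 on the other BDNF arrays. Over 21 alternative settings and left-out arrays, from 8 to 10 of the 10 genes stayed below 0, with medians from −0.20 to −0.12. The shared sign is a description of these 8 arrays.

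In the hippocampus, which receives the axons of the injected region, the same comparison gave 6 genes above 0 and 4 below, with a median of 0.01 (all genes −0.01). MHC class II genes had a median of −1.47 there (0 of 5 above 0), oligodendrocyte genes −0.33 (0 of 6) and microglial genes −0.39 (1 of 7), and their part was not tested. Limma called 0 of the 10 and 0% of all genes, and 0 members had an unadjusted p under 0.05 where 5.31% of all genes did. Tac1 read 0.22 ± 0.18, Crh 0.19 ± 0.24, Nptx2 −0.14 ± 0.18 and Vgf −0.10 ± 0.11. Npy read −0.08 ± 0.11, Penk 0.06 ± 0.23 and Cck 0.03 ± 0.07. The second Nptx2 probe set, outside the counts of members, read −0.15 ± 0.07 (limma unadjusted p = 0.046). Sst (−0.03), Cort (0.01) and Scg2 (0.00) were close to 0, and no member had groups without overlap, against 2.64% of all genes. Tested directly, the BDNF effect differed between the regions for 0 members and 0% of all genes. The member nearest to a difference was Tac1, at −0.48 ± 0.23 (entorhinal minus hippocampal effect, limma adjusted p = 0.996).

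**Figure D3:**
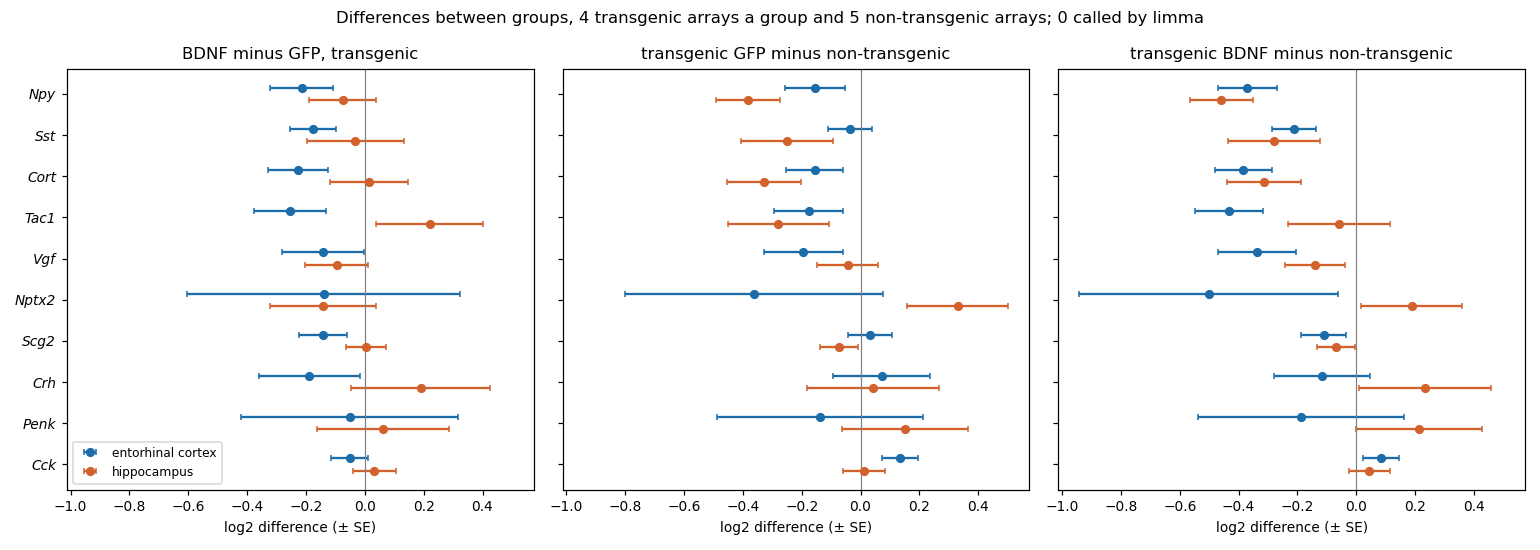
Points are log2 differences with bars of 1 SE for entorhinal cortex (blue) and hippocampus (orange), in 3 comparisons: BDNF against GFP in transgenic animals, transgenic GFP against non-transgenic, and transgenic BDNF against non-transgenic. All 10 entorhinal points lie below 0 in the first, and Npy and Cort lie below 0 in both regions in all 3 except Cort in the hippocampus with BDNF against GFP (0.01).

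The transgenic groups were then set against all 5 non-transgenic arrays of a region. These comparisons share the non-transgenic arrays, and the one for GFP shares its GFP arrays with the BDNF comparison above. In the entorhinal cortex, transgenic animals with BDNF had lower values for 9 of 10 genes (median −0.27, all genes 0.03). Limma called 0 members and 0.0402% of all genes. Unadjusted p was under 0.05 for 5 members, Cort, Tac1, Npy, Sst and Vgf, all lower, against 13.2% of all genes.

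Tac1 read 9.23 to 9.65 on the 4 BDNF arrays and 9.82, 9.82, 9.90, 9.81 and 10.03 on the non-transgenic arrays (GFP 1 and 2, sham 1 to 3). Every non-transgenic array lay above every BDNF array, a difference of −0.43 ± 0.12 (SE, n = 4 and 5, limma adjusted p = 0.266). Cort read 6.64 to 7.0 with BDNF and 7.06, 7.15, 7.33, 7.21 and 7.05 without the transgene. It did not overlap either, with a difference of −0.38 ± 0.10 (limma adjusted p = 0.258). These 2 were the members without overlap, against 4.59% of all genes. Npy, at 9.61 to 9.77 with BDNF, read 9.63, 10.05, 10.30, 10.10 and 10.21 on the non-transgenic arrays. It overlapped only through non-transgenic GFP array 1, and differed by −0.37 ± 0.10 (limma adjusted p = 0.266). Sst read −0.21 ± 0.07 and Vgf −0.34 ± 0.13, while Nptx2 read −0.50 ± 0.44 (second probe set −0.20 ± 0.20) and Cck 0.08 ± 0.06. Penk (−0.19 ± 0.35), Crh (−0.12 ± 0.16) and Scg2 (−0.11 ± 0.08) were the remaining members. Penk read 11.73 on BDNF array 3 and 9.69 to 10.20 on the other BDNF arrays, against 10.13 to 11.02 on the non-transgenic arrays. Without the 3 arrays that stand apart Cort read −0.34, Tac1 −0.42 and Npy −0.37.

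With GFP in place of BDNF the transgenic entorhinal values lay closer to the non-transgenic ones for each member except Cck (0.14 against 0.08). The second Nptx2 probe set also lay farther off with GFP (−0.48 against −0.20). Limma called 0 members and 0.0134% of all genes, and 1 member had an unadjusted p under 0.05 against 4.76% of all genes. That member was Cck, at 11.36 to 11.48 on transgenic GFP arrays against 11.12 to 11.34 on non-transgenic arrays, higher by 0.14 ± 0.06 (limma adjusted p = 0.935). It was also the only member without overlap, against 2.31% of all genes. Npy read −0.16 ± 0.10, Cort −0.16 ± 0.10, Tac1 −0.18 ± 0.12 and Vgf −0.19 ± 0.13. Sst (−0.04), Scg2 (0.03), Crh (0.07) and Penk (−0.14) were nearer to 0, and Nptx2 read −0.36 ± 0.44. Its second probe set, outside the counts of members, read −0.48 ± 0.20 (limma unadjusted p = 0.037). Against the 2 non-transgenic GFP arrays alone, 5 of 10 genes read below 0, with Crh at 0.25 ± 0.21 and the others from −0.12 (Tac1) to 0.12 (Scg2). Npy (0.06 ± 0.13) and Sst (0.07 ± 0.10) read above 0 here, but below 0 against all non-transgenic arrays. The second Nptx2 probe set read −0.32 ± 0.26. There limma called 0 members and 0.0134% of all genes, with 0 members at an unadjusted p under 0.05 against 2.5% of all genes. These GFP arrays decided Nptx2, which read −0.05 ± 0.57 with both, 0.77 without array 2 and −0.86 without array 1.

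In the hippocampus Npy was the member farthest from its non-transgenic level. It read 9.50, 9.72, 9.96 and 9.69 on transgenic BDNF arrays and 9.80, 9.70, 9.74 and 9.94 on transgenic GFP arrays. The non-transgenic arrays read 10.09 and 10.05 with GFP and 9.98, 10.25 and 10.51 with sham. All 8 transgenic arrays lay below all 5 non-transgenic arrays. The difference was −0.46 ± 0.11 with BDNF (SE, n = 4 and 5, limma adjusted p = 0.369) and −0.38 ± 0.11 with GFP (limma adjusted p = 0.672), so neither passed adjustment over all genes, where Npy ranked 40th and 80th by p. Npy was the only member without overlap in each comparison, against 3.02% of all genes with BDNF and 0.917% with GFP. With the Xist level as a covariate the differences were −0.52 and −0.45, and on the Xist-high transgenic arrays alone (BDNF 1 and 2, GFP 1 and 3) Npy read 9.50, 9.72, 9.80 and 9.74. Without sham array 1, the array with choroid plexus genes, they were −0.51 and −0.43, and without sham array 3, the highest, −0.38 and −0.30.

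The transgenic means of Cort and Sst were also below the non-transgenic means in the hippocampus, with the highest values of both genes on sham arrays 2 and 3. Cort read −0.31 ± 0.13 with BDNF (limma adjusted p = 0.695) and −0.33 ± 0.13 with GFP (limma adjusted p = 0.999). It stood at 7.46 and 7.49 on sham arrays 2 and 3 and at 6.66 to 6.97 on the remaining 11 arrays. Without sham array 2 Cort read −0.23 and −0.25, and without sham array 3 −0.23 and −0.24. Sst read −0.28 ± 0.16 with BDNF and −0.25 ± 0.16 with GFP. Its arrays overlapped, at 10.48 to 11.01 with the transgene and 10.57 to 11.32 without it. The members at an unadjusted p under 0.05 were Npy and Cort, 2 in each comparison, against 6.6% of all genes with BDNF and 4.49% with GFP. Limma called 0 members in both, against 0.0535% and 0.0402% of all genes. Nptx2 read 0.33 ± 0.17 with GFP and 0.19 ± 0.17 with BDNF, but 0.05 and −0.09 on its second probe set, so its sign with BDNF differed between probe sets. Crh read 0.04 ± 0.22 with GFP and 0.23 ± 0.22 with BDNF, and Penk 0.15 ± 0.21 and 0.21 ± 0.21. Tac1 read −0.28 ± 0.17 with GFP and −0.06 ± 0.17 with BDNF, and Vgf −0.04 and −0.14. Scg2 (−0.07 in both) and Cck (0.01 and 0.04) stayed near 0. Against non-transgenic GFP arrays alone Npy read −0.28 ± 0.14, Tac1 −0.31 ± 0.22 and Nptx2 0.39 ± 0.22. The second Nptx2 probe set read 0.21 ± 0.08 (limma unadjusted p = 0.022). The others read from −0.18 (Sst) to 0.09 (Cck). On the brightest probe sets 0 members were called against 0.00669% of all genes, and 0 had an unadjusted p under 0.05 against 4.41%. The difference of transgenic GFP from all non-transgenic arrays, which mixes genotype with treatment, did not test as different between regions for any member or for any other gene (0%). The member with the largest gap was Nptx2, at −0.69 ± 0.50 on its brighter probe set and −0.53 ± 0.22 on the other (entorhinal minus hippocampal difference).

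Markers of other cells were read in the same groups. Over 9 GABAergic interneuron genes, which exclude the members, the mean in the hippocampus was 9.22 to 9.39 on transgenic BDNF arrays, 8.86 to 9.40 on transgenic GFP arrays and 9.10 to 9.28 on non-transgenic arrays. Their median difference was 0.14 with BDNF against non-transgenic in the hippocampus (7 of 9 above 0) and 0.09 in the entorhinal cortex (7 of 9). Oligodendrocyte genes read −0.25 in the hippocampus (0 of 6 above 0) and 0.06 in the entorhinal cortex (5 of 6). MHC class II genes lay between 5.79 and 8.42 on hippocampal BDNF arrays, between 5.82 and 9.32 with transgenic GFP between 8.71 and 9.96 with non-transgenic GFP and between 5.61 and 5.94 with sham. The part of interneurons, glial cells and immune cells in these results was not tested.

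GFP treatment was compared with sham lesion in non-transgenic animals, with 2 and 3 arrays. The virus, the GFP it carries and any difference in procedure cannot be told apart in this comparison. In the entorhinal cortex 9 of 10 genes read below 0 (median −0.16, all genes 0.00). Npy read 9.63 and 10.05 with GFP and 10.30, 10.10 and 10.21 with sham, a difference of −0.37 ± 0.14 that did not pass adjustment. It read −0.16 without GFP array 1 and −0.58 without GFP array 2. Npy was the 1 member at an unadjusted p under 0.05, against 2.95% of all genes. Nptx2 read −0.52 ± 0.60 (second probe set −0.27 ± 0.28) and Crh −0.30 ± 0.22, and the others from −0.17 (Sst, Penk) to 0.08 (Cck). Npy, Sst and Scg2 lay below all sham arrays, 3 of 10 without overlap against 19.2% of all genes, and limma called 0 members against 0.0201%. In the hippocampus Penk was above and Cck below all sham arrays, 2 of 10 against 29% of all genes, with differences of 0.29 ± 0.29 and −0.13 ± 0.10. Cort read −0.28 ± 0.17, Crh 0.25 ± 0.31 and Npy −0.18 ± 0.15 there, and the others from −0.11 (Sst) to 0.04 (Tac1). The second Nptx2 probe set read −0.26 ± 0.09 (limma unadjusted p = 0.0095, adjusted p = 0.444 over probe sets). Its GFP arrays, at 4.52 and 4.57, lay below its sham arrays, at 4.73 to 4.86. On the brightest probe sets limma called 0 members there against 0.0335% of all genes, and 0 had an unadjusted p under 0.05 against 9%. The GFP effect did not test as different between regions for any member or any other gene (0%). MHC class II genes had medians 2.52 and 4.30 higher with GFP than with sham in the entorhinal cortex and hippocampus, and their part in the peptide values was not tested. Sham arrays had the highest group mean of Npy in both regions, 10.21 ± 0.10 and 10.25 ± 0.26 (SD, n = 3).

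How much the genes varied within groups differed widely. Nptx2 and Penk had entorhinal within-group SDs of 0.75 and 0.60, at percentiles 99.3 and 98.6 of all genes (median SD 0.14). Nptx2, which clusters AMPA receptors at synapses and is strongly activity-dependent, read 8.13, 6.87, 9.29 and 7.97 on entorhinal BDNF arrays 1 to 4. Both ends of its range over the 13 arrays, 5.36-fold apart, thus fell in 1 group. Penk read 9.69, 9.90, 11.73 and 10.20 on the same arrays. Array 3 was the highest for both. Cck and Scg2 sat at the other end, with SDs of 0.07 for Cck in the entorhinal cortex (percentile 9.32) and 0.08 for Scg2 in the hippocampus (percentile 14.1). In the hippocampus Crh (0.39), Penk (0.37), Tac1 (0.30), Nptx2 (0.30) and Sst (0.27) were all above percentile 93 (93.2 for Sst, the lowest of these).

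Nptx2 and Penk were high on the 2 entorhinal arrays with the lowest oligodendrocyte means. On BDNF array 3 (mean 7.74) Nptx2 read 9.29 and Penk 11.73, and on non-transgenic GFP array 2 (mean 7.95) they read 9.07 and 10.80. On the arrays with the next lowest means Nptx2 was not uniformly high: it read 8.37 on transgenic GFP array 4 (mean 8.65), 9.19 on sham array 2 (8.68), 8.87 on sham array 1 (8.84) and 7.70 on transgenic GFP array 2 (8.89). The lowest Nptx2 value, 6.87 on BDNF array 2, came with a mean of 9.20. Whether dissection or another source moved these values together was not tested. Vgf took its lowest entorhinal value, 10.10, on BDNF array 3, where Nptx2 and Penk took their highest.

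**Figure D4:**
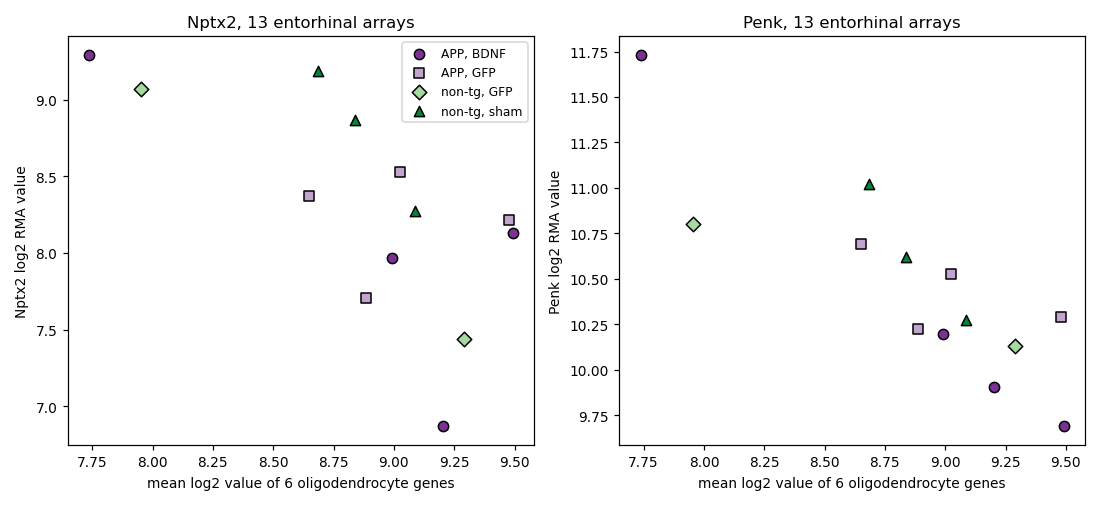
Log2 values of Nptx2 (left) and Penk (right) on the 13 entorhinal arrays are plotted against the mean log2 value of 6 oligodendrocyte genes, with symbols for the 4 groups. The 2 arrays at 7.74 and 7.95 on the x axis hold values of 9.29 and 9.07 for Nptx2 and 11.73 and 10.80 for Penk.

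Co-variation from array to array was measured on deviations from the group means, over 110 pairs (45 pairs of members and 10 with Bdnf in each region, 13 arrays each). The 2-sided p-values came from all 6912 exact permutations within groups, with Benjamini-Hochberg adjustment over the 110 pairs. In the hippocampus 33 of 45 member pairs were positive (median r 0.30), and in the entorhinal cortex 26 of 45 (median r 0.10). Unadjusted p was under 0.05 for 10 and 4 pairs, and 0 of 110 pairs passed adjustment. Without hippocampal non-transgenic GFP array 1, or without array 2, 1 pair passed.

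Npy and Sst had the smallest p of the hippocampal pairs, at r = 0.83 (exact permutation p = 0.00116, adjusted p = 0.119) and rho = 0.90 (exact permutation p = 0.0013, adjusted p = 0.0923). Leaving out sham arrays 1 and 3, the farthest from the median, gave r = 0.72. Npy and Vgf had r = 0.78 (exact permutation p = 0.00304, adjusted p = 0.119) and rho = 0.81 (exact permutation p = 0.00347), with r = 0.84 without the same arrays. Sst and Vgf had r = 0.74 (exact permutation p = 0.00434, adjusted p = 0.119) and rho = 0.84 (exact permutation p = 0.00405), and r = 0.65 without transgenic GFP array 2 and sham array 1. These 2 arrays were low in several members at once. Sham array 1 read 10.57 for Sst, 6.78 for Cort, 8.53 for Tac1 and 5.40 for Crh, against 11.29, 7.46, 9.29 and 6.32 on sham array 2. Transgenic GFP array 2 read 10.48, 6.66, 8.42 and 5.48 for the same genes. Tac1 and Crh had r = 0.87 (exact permutation p = 0.0127, adjusted p = 0.171) and rho = 0.88 (exact permutation p = 0.0069), with r = 0.77 without those arrays. The mean over 9 GABAergic interneuron genes was 8.86 on transgenic GFP array 2 and 9.10 on sham array 1. On the remaining hippocampal arrays it was 9.20 to 9.40. The part of cell composition in these pairs was not tested.

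Bdnf co-varied with Scg2 in the hippocampus, at r = 0.87 (exact permutation p = 0.00391, adjusted p = 0.119) and rho = 0.87 (exact permutation p = 0.0042), and r = 0.82 without BDNF array 4 and non-transgenic GFP array 1. In the entorhinal cortex Nptx2 and Penk had r = 0.81 (exact permutation p = 0.0217, adjusted p = 0.171) and rho = 0.86 (exact permutation p = 0.00347), falling to r = 0.67 without BDNF arrays 2 and 3. None of these passed the adjustment, and the 13 arrays were normalized together.

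**Figure D5:**
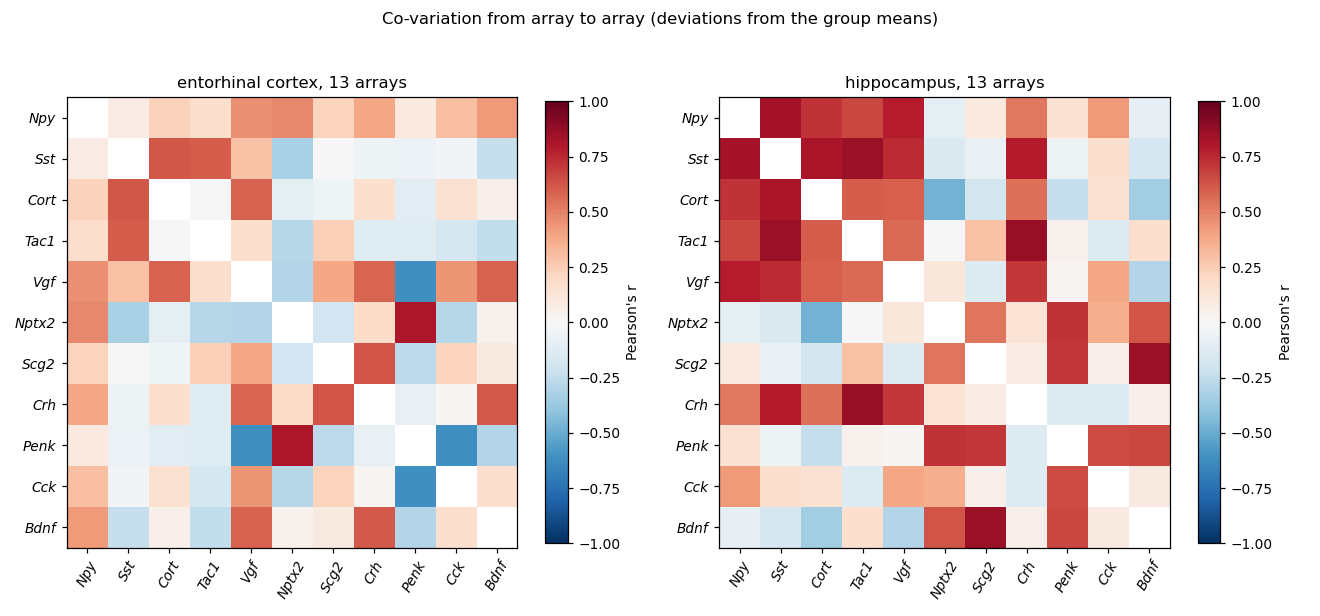
Pearson's r between members and with Bdnf is shown by colour from −1 (blue) to 1 (red), for deviations from group means on 13 entorhinal (left) and 13 hippocampal (right) arrays. The hippocampal block of Npy, Sst, Cort, Tac1 and Vgf is mostly red, with Npy and Sst at 0.83.

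The genes most like each member were read from the same deviations over all 26 arrays, as a description with no test. Nptx2 was followed most closely by Nrn1, the neuritin gene (r = 0.93), and Gm34996 (r = 0.92). These were closer on entorhinal arrays (0.98 and 0.96) than on hippocampal arrays (0.60 and 0.65). Sst and Tac1 shared Resp18, which encodes a secretory-granule protein, among their nearest genes (r = 0.84 and 0.85), beside Cep19 (0.83) for Sst and Rab3c (0.86) for Tac1. Vgf was nearest to Gnas (0.83) and Bap1 (0.82), Penk to Sdcbp2 (0.85) and Filip1 (0.85), and Crh to Dlg1 (0.84) and Pcdh11x (0.79). Scg2 was nearest to Polr3a (0.81) and Fadd (0.78), and Cort to Rasal1 (0.80) and 1500011B03Rik (0.79). Npy (Tmem74b, 0.70, and Tmem196, 0.66) and Cck (Fabp3, 0.69, and Cry2, 0.66) had no neighbour above 0.70. The 99th percentile of r over all genes was 0.49 for Npy and 0.68 for Nptx2, and ran from 0.48 (Cck) to 0.71 (Penk) over the members.

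Other genes of the peptide system were read from fixed lists. Of 14 other neuropeptide precursors tested, 7 were called higher and 4 lower in the entorhinal cortex than in the hippocampus, a comparison in which 51.8% of all 14941 genes were called (3075 higher, 4671 lower). Those higher included Trh, the thyrotropin-releasing hormone precursor (1.49 ± 0.32), Cartpt (1.02 ± 0.13) and Vip (0.93 ± 0.09). Those lower were Grp (−1.28 ± 0.20), Nmb (−1.09 ± 0.08), Pdyn, the dynorphin precursor (−0.68 ± 0.07), and Gal, the galanin precursor (−0.42 ± 0.09). With BDNF against GFP in transgenic entorhinal cortex 0 were called and 3 of 14 read above 0, with a median of −0.21 (all genes 0.01). The lowest p there were those of Cartpt (−0.76 ± 0.20) and Edn3 (−0.41 ± 0.12). In the hippocampus 10 of 14 read above 0, with a median of 0.02.

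Receptors were read next, most of them for the members' own peptides. Of 19 tested, 9 were called higher and 5 lower in the entorhinal cortex, where 51.8% of all genes were called. Cckbr, the brain cholecystokinin receptor, was 2.04 ± 0.07 higher in the entorhinal cortex, whereas its ligand gene Cck was lower there. Npy2r, the presynaptic neuropeptide Y receptor, was lower by 2.69 ± 0.22, and Npy1r was 0.47 ± 0.09 higher. Among the somatostatin receptors Sstr2 was 0.83 ± 0.07 higher and Sstr4 lower by 0.98 ± 0.08. Crhr1, the main corticotropin-releasing hormone receptor, was 0.52 ± 0.07 higher, and Crhbp, which binds the peptide, 0.70 ± 0.08 higher. With BDNF against GFP 0 receptors were called in either region. The smallest p belonged to Crhr1 in the entorhinal cortex (0.37 ± 0.13) and Npy2r in the hippocampus (0.42 ± 0.12), and medians were −0.01 in both.

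Genes of dense-core vesicles and peptide processing had 5 members called higher and 5 lower of 15 between regions, against 51.8% of all genes called. Pcsk1, the convertase that starts precursor cleavage, was 0.65 ± 0.09 higher in the entorhinal cortex and Cpe, which trims the products, 0.23 ± 0.04 higher. Chgb, chromogranin B, was lower by 0.27 ± 0.04. Of 14 genes of BDNF and TrkB signalling 5 were higher and 8 lower, and of 21 activity-regulated and CREB target genes 6 were higher and 5 lower. The 11 called of 21 are near that background. With BDNF against GFP in the entorhinal cortex 0 genes of these lists were called. Their medians were 0.01 for vesicle and processing genes (8 of 15 above 0), −0.02 for TrkB signalling (6 of 14) and 0.03 for activity-regulated genes (14 of 21). In the hippocampus they were 0.03 (8 of 15), 0.00 (7 of 14) and −0.11 (5 of 21), with 0 called. Crtc1, a coactivator of CREB, had the smallest p of the signalling list in both regions, at −0.22 ± 0.09 and −0.27 ± 0.10, neither of them called.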

How the data were processed

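The authors deposited 1 table of log2 expression values for 45101 probe sets on 26 arrays, made with RMA (background correction, quantile normalization and probe summary) per the submitters' processing notes, whose version was not found in the labels. RMA gives all arrays nearly the same distribution, so it hides any change that most genes share, and it compresses differences of dim probe sets. Gene symbols came from the platform annotation, updated through Entrez identifiers. A gene with several probe sets was represented by the brightest, judged on its mean of 26 arrays, and the main counts of members rest on that probe set. Genes with a mean below the 30th percentile of probe sets (4.33) were left out.

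Groups came from the labels, which call replicates biological and do not tie entorhinal to hippocampal arrays. The tool was limma 3.58.1 (lmFit, then eBayes; R 4.3.3), applied as linear models to the log2 values deposited by the authors for the 13 arrays of a region, or of all 26 for region comparisons. Tests were 2-sided with Benjamini-Hochberg adjustment over 14941 genes, and errors are moderated standard errors. The members and gene lists were chosen with earlier results of these data known. All members were named, in full or by the range of their values, in each comparison within and between regions; of each list, called members or up to 2 with the smallest p were named, and where more were called, examples were chosen after their values were seen, as were the arrays described by marker means. Likeness named the 2 genes of highest r. The number of arrays limits the precision. The scripts were tested on simulated data. Alternatives were other filters, other probe set rules, renewed quantile normalization, array-median centring, trend and robust eBayes, array weights, all arrays or only the compared groups in a fit, a replicate block, an Xist covariate, and leaving out arrays.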

Additional observations from a re-analysis of the deposited data

Results flagged for a closer look

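Among 44 groups of 4 arrays examined for the members, an array stood far from the other 3 of its group in 2, where chance flags about 1 in 20 groups, or 2.2 here. Vgf read 10.10 on entorhinal BDNF array 3, against 10.67 to 10.78 on the other BDNF arrays. Nptx2 read 9.08 on hippocampal BDNF array 4, against 8.46 to 8.48 on the other BDNF arrays.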

How the results depend on the processing

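Of 3180 member differences recomputed under the alternatives, 3163 kept their direction or moved by less than the within-group spread, and kept their side of the threshold. An uncalled difference was counted as reversed only where it had been at least 1 SE from 0. That held for Vgf with BDNF against GFP in the entorhinal cortex, at 0.011 without the 3 arrays that stand apart and from −0.21 to 0.011 when single arrays were left out, the latter without BDNF array 3. A further 10 uncalled values moved by more than the spread, 4 calls of Vgf between regions ended and 1 call of Nptx2 appeared; the cause was not tested. Members called between regions numbered from 5 to 6 over left-out arrays and from 6 to 7 over other settings, and 0 members were called within regions under any alternative run. Pairs of members passing adjustment ranged from 0 to 1 when arrays were left out. Replicate numbers did not pair the arrays: deviations of same-numbered arrays correlated from −0.25 to 0.39 within regions. With the replicate block, Npy in the hippocampus read −0.51 with BDNF and −0.43 with GFP against non-transgenic, and 0 members were called within regions. Genes called among all genes, under settings and left-out arrays, ranged in the entorhinal cortex from 1 to 2 (transgenic GFP against non-transgenic GFP), 2 to 5 (against all non-transgenic), 2 to 22 (transgenic BDNF) and 0 to 3 (GFP against sham), and in the hippocampus from 1 to 5, 1 to 10, 1 to 14 and 2 to 21. The non-transgenic groups of 2 and 3 arrays limit what small differences of single genes could pass the test.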
